A study of Homo sapiens with 6 samples.

Results

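Chromosome 7 from 120 to 140 Mb on hg38 is a 20-Mb stretch of its long arm. It was examined in 6 ATAC-seq peak lists, and its members are all peaks that start and end inside these borders. The naïve lists held 1427 of 154926 and 811 of 115694 peaks there. The R1 lists held 1330 of 340558 and 1048 of 292030, and the R2 lists 246 of 67558 and 258 of 73484. The stretch was chosen by the ranks of peak p-values in these same libraries, and so the ranks, folds and shares below are a description without a test.

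The cells were SK-N-AS, a human neuroblastoma line, grown from xenograft tumors in mice. Naïve cells came from tumors of vehicle-treated mice, and the indisulam-resistant R1 and R2 cells from tumors harvested on a second relapse while the drug was being given. The cultured cells themselves received no treatment, and each library was made from 100000 of them. With 2 libraries for each cell type and no word on separate cultures, the spread between libraries may be technical, and R1 and R2 share their naïve controls. An exact one-sided test of 2 naïve against 4 resistant libraries cannot give a p below 0.0667, and a two-sided test of 2 against 2 cannot go below 0.333.

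ATAC-seq marks open chromatin by the cuts of a transposase, which enters promoters and enhancers more readily than packed DNA. The signal at a place depends both on how open it is in each DNA copy and on how many copies the cells hold, which a peak list cannot tell apart. The stretch carries genes of neural growth signalling, Golgi and vesicle traffic, RNA processing and mitochondrial metabolism, and the miR-183 cluster of sensory and neural microRNAs. By GENCODE 44 it holds 361 genes, of which 113 are protein-coding, 92 are lncRNAs and 14 are microRNAs.

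A set of 5 of its regions, given first because the comparisons turn on them, are printed from hg38, plus strand, around the peak summit of the first R2 list and outside annotated exons. The first 3 had the largest loss of rank in the resistant cells, the one upstream of FLNC in a tie with a neighbouring region. LRRC4 had the largest loss of any coding gene start, and FAM3C was among the 3 highest-ranked regions. Capitals mark matches to the motifs searched, which were TGANTCA for AP-1, CCAAT for NF-Y and GGGCGG for SP/KLF here, on either strand. The SND1 and LRRC4 regions held none of the motifs in these windows.
Within SND1, chr7:128085085-128085205: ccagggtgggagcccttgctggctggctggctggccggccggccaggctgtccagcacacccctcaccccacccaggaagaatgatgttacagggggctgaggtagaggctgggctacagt
Within CREB3L2, chr7:137882242-137882362: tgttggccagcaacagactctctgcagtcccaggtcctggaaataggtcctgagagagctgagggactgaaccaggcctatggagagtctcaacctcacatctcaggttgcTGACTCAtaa
Upstream of FLNC, chr7:128828302-128828422: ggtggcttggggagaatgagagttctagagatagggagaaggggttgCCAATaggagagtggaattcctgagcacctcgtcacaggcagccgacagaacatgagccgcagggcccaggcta
LRRC4 start, chr7:128031914-128032014: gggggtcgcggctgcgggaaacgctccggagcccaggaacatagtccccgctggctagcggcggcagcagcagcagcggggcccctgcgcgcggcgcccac
FAM3C start, chr7:121396365-121396448: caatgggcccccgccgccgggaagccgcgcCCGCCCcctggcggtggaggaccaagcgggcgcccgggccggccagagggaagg

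The miR-183 cluster lies on the minus strand. Its mature 5p sequences are shown because R1 and R2 each overlapped naïve in rank at the region by the annotated MIR183 and MIR96 starts. R1 lay above R2 there. They are from RefSeq on GRCh38.p14, with the seed, bases 2 to 8, in capitals. The 3 seeds differ from each other.
miR-183-5p, chr7:129774967-129774988: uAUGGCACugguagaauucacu
miR-96-5p, chr7:129774739-129774761: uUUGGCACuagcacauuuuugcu
miR-182-5p, chr7:129770447-129770470: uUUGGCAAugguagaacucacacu

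Resistant cells kept a smaller share of their open regions in the stretch. It held 0.921% and 0.701% of the naïve lists, 0.391% and 0.359% of the R1 lists, and 0.364% and 0.351% of the R2 lists. Naïve libraries averaged 0.811% ± 0.156 (SD, n = 2), and the 4 resistant libraries 0.366% ± 0.0171 (SD, n = 4), a ratio of 0.451. Each resistant library lay below both naïve libraries, and R1 and R2 were close to each other. In the flanks, from 100 to 120 Mb and beyond 140 Mb, the share of each resistant library was also below both naïve shares. The ratios of resistant to naïve were 0.822 and 0.723 there. The separation of the groups is thus not particular to the stretch, though its ratio was lower. Among the strongest 20000 peaks of each list, the stretch held 165 and 124 of those of naïve cells, 88 and 82 of those of R1, and 77 for each R2 library, and again the groups did not overlap. The peaks covered 671 and 370 kb of it in the naïve lists, 755 and 577 kb in the R1 lists, but 87.6 and 93.4 kb in the R2 lists.

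The lists differ in length, and this bears on the ranks. The median rank of the stretch's peaks within the whole list was 41.3 and 41.1 in naïve, 43.2 and 42.3 in R1, and 47.8 and 48.3 in R2, which is no lower in resistant cells. A long list adds weak peaks below the strong ones, so ranks were also taken over the 36449 regions that had a peak in all 6 lists, of which 148 lay in the stretch. To be among them a region had to be called in both R2 lists, and regions that were weakest in R2 are therefore missing. At the summit of these 148 regions the median pileup recovered from the deposited folds was 34 and 24 tags in naïve, 105.5 and 67 in R1, and 12.5 and 12 in R2. Ranks in R2 thus rest on few reads, and 12.1% of all common regions in the first R2 library were tied at a single value.

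Over the 148 common regions the stretch ranked above the middle in naïve cells and below it in R1. With 50 as the middle, naïve libraries had median ranks of 65.7 and 71.2, R1 libraries 36.6 and 32.5, and R2 libraries 54.8 and 43.2. The 3 cell types did not overlap, with R1 lowest. On the rest of chromosome 7 the library medians averaged 51.9 for naïve, 49.0 for R1 and 51.1 for R2, with SDs of 0.210, 0.281 and 0.180 (n = 2 each). Region by region, the median shift from naïve was -22.6 percentile points in R1 and -10.1 in R2, against -1.93 and -1.63 elsewhere on the chromosome. The shift was below 0 at 144 regions in R1 and at 121 in R2. The libraries of a cell type differed at a region by a median of 7.69 points for naïve, 4.33 for R1 and 13.7 for R2, so the median R2 shift was smaller than the usual difference between its own libraries.

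Expressed as enrichment over background, centred on all common regions, the median log2 difference from naïve was -0.55 in R1 and -0.28 in R2, which are ratios of 0.683 and 0.824. The median difference in rank of R1 minus R2 was -13.6 points in the stretch. In the flanks it was -10.9 from 100 to 120 Mb and -9.03 beyond 140 Mb, and 0.172 over all of chromosome 7 outside the stretch. Within the stretch it was -8.36 with 1 region for each naïve peak. Over the 23 regions that shared at least a fraction of 0.5 of their length with a peak in every list it was -0.73. All 4 resistant libraries ranked below both naïve libraries at 66 of the 148 regions, or 44.6%, where 12.8% of all common regions did so. None of the 148 had all 4 resistant libraries above, against 12.7% of all. Both R1 libraries were below at 122 and above at 0, where the shares of all common regions were 34.5% and 27.4%. Both R2 libraries were below at 69 and above at 13, with background shares of 22.3% and 26.4%. R1 was below R2 at 91 regions and above it at 13, against 34.5% and 26.4% of all. R1 was below and R2 above naïve at 9 regions, near the 5.55% of all, and the reverse held at 0, against 3% of all. The rule used these ranks, and nothing further is read from the counts.

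**Figure D1:**
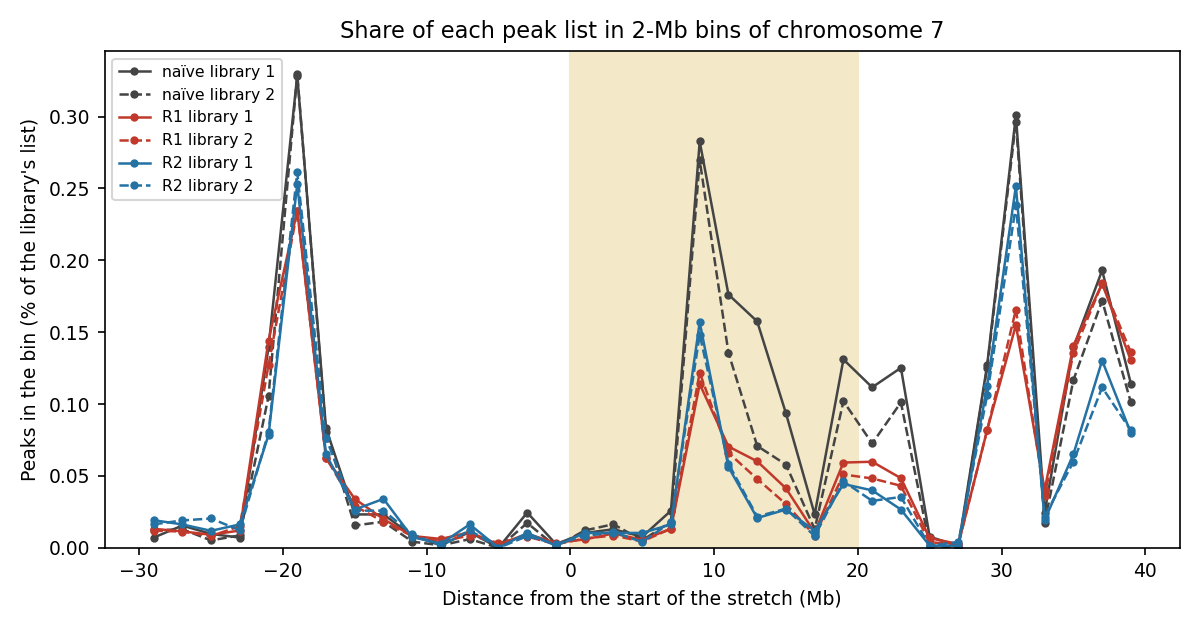
The share of each library's peak list in 2-Mb bins of chromosome 7 (y axis, % of the list) is plotted against the distance from the start of the stretch in Mb (x axis), with the stretch shaded, 1 line for each library. In the shaded area the naïve lines lie above all 4 resistant lines from 6 Mb onward, and they stay above them just past its far end.

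The difference was not even along the stretch. Shares were lower in all 4 resistant libraries than in both naïve libraries in 8 of its 10 bins of 2 Mb, those from 126 to 140 Mb among them. The bin from 128 to 130 Mb held the most, with 438 and 312 peaks in naïve, 388 and 356 in R1, and 106 and 109 in R2, and 66 common regions. Its median shift was -27.5 in R1 and -16.7 in R2. The bin from 132 to 134 Mb had 244 and 82 peaks in naïve, 205 and 140 in R1 but 14 and 16 in R2. As shares of the list these were 0.157% and 0.0709% in naïve and 0.0602% and 0.0479% in R1, with the naïve libraries far apart. The median shift was below 0 in all 10 bins in both R1 and R2. In bins of 1 Mb it was below 0 in all 19 in R1 and in 84.2% of them in R2.

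The borders of the stretch are not where the pattern ends. Of 25 bins outside it from 90 Mb on, 7 also had lower shares in all resistant libraries and 3 had higher ones. The median R1 shift was -7.56 from 100 to 120 Mb and -8.76 beyond 140 Mb, and the R2 shifts there were 2.77 and -0.67. From 140 to 142 Mb it was -13.5 in R1 and -4.33 in R2. At the near border the last common region outside, at the start of LSM8, which encodes an RNA-binding protein, had a mean resistant shift of -5.27, and the first inside, at the start of TSPAN12, a tetraspanin, had -12.6. At the far border the last region inside, within TBXAS1, had -56.1 and the first outside had -1.02. The 2 are not alike in level, with naïve ranks of 70.1 and 64.7 inside but 3.02 and 17.5 outside. The outside region thus had little room to fall. Its R1 ranks of 0.237 and 0.760 were below both naïve ones, and its R2 ranks were 1.91 and 34.0.

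**Figure D2:**
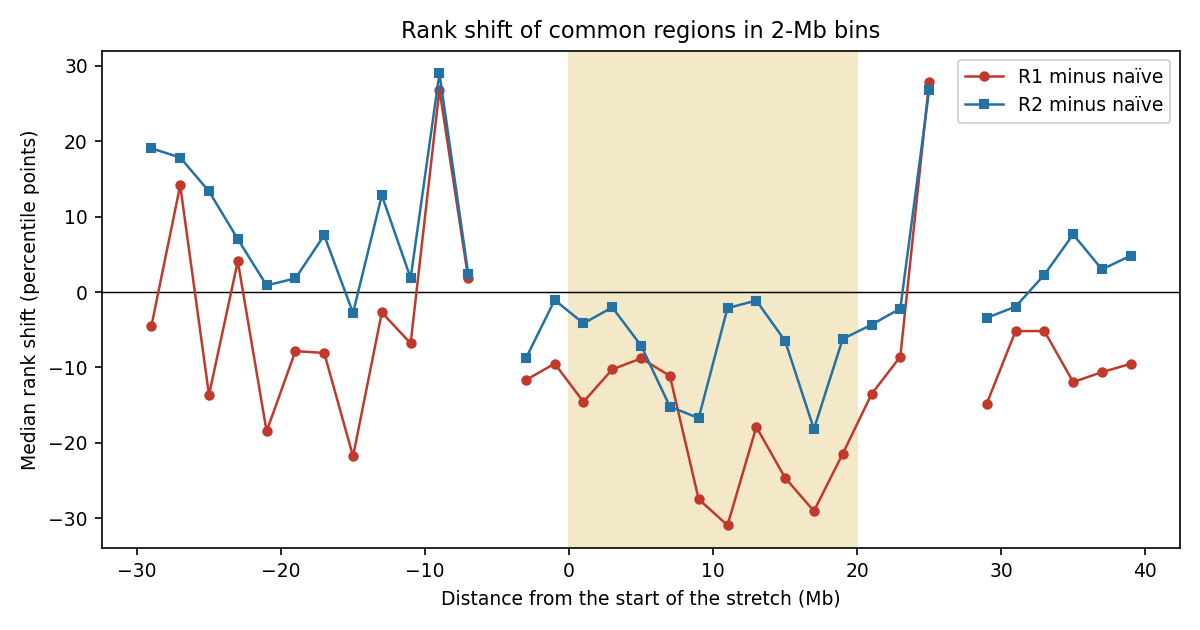
The median rank shift of common regions from naïve (y axis, percentile points) is plotted by 2-Mb bin against the distance from the start of the stretch in Mb (x axis), with circles for R1, squares for R2 and the stretch shaded. All 10 shaded bins lie below 0 for both, and R1 reaches -30.9, while the 2 bins above 25 points outside hold 1 region each.

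Regions away from transcript starts had a larger R1 difference than promoters. Of the 148 regions, 91 lay within 1000 bp of a start and 57 farther away, so 61.5% were at a start against 52.9% of all common regions. The median R1 shift was -19.5 at starts and -31.6 away from them, and all 57 of the latter were below 0. In R2 the medians were -8.36 and -15.1 in rank. In log2 enrichment they were -0.296 and -0.269, which is the reverse order. Over all common regions the R1 medians were 0.46 at starts and -3.98 away. For R1 the flanks had a like gap, at -6.71 and -15.3 from 100 to 120 Mb and -5.80 and -17.7 beyond 140 Mb. The R1 gap is therefore not particular to the stretch. For R2 the flank medians were 2.38 and 5.20, then -1.91 and 1.88, no lower away from starts.

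**Figure D3:**
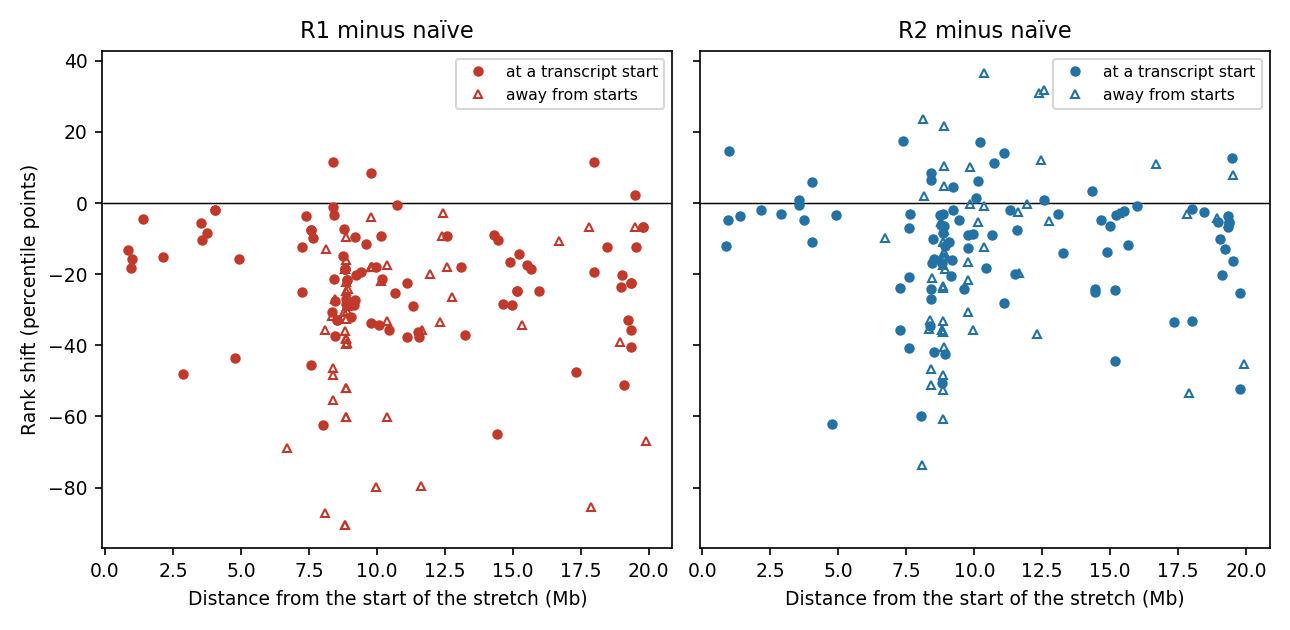
The rank shift of each of the 148 common regions from naïve (y axis, percentile points) is plotted against its distance from the start of the stretch in Mb (x axis), for R1 and R2, with filled circles at transcript starts and open triangles away from them. In R1 nearly all points lie below 0, and in R2 27 do not.

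Some naïve regions were not called at all in resistant cells. Of 556 regions of the stretch found in both naïve lists, 62 had no peak in either R1 list, against 1.1% of all such regions. In either R2 list 349 had none, against 38.9% of all, with the R2 lists the shortest. In no resistant list at all were 60, or 10.8%, against 0.897% of all and 43 of 4591 on the rest of the chromosome. Of these 60, 56 lay away from starts. In the other direction, 2 of 131 regions with a peak in all 4 resistant lists had none in naïve cells, against 3.38% of all.

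The 3 regions with the largest loss of rank lay away from starts. The one within SND1, which encodes a nuclease of RNA silencing complexes, ranked 94.0 and 85.1 in naïve, 2.85 and 2.08 in R1, and 8.03 and 24.01 in R2. That within CREB3L2, a membrane-bound transcription factor of the secretory pathway, ranked 89.6 and 82.2 in naïve, 0.637 and 0.118 in R1, and 51.0 and 14.1 in R2. At SND1 all 4 resistant libraries were lower by a wide margin, and the CREB3L2 region was near the bottom only in R1. The region upstream of FLNC, an actin crosslinker of muscle, ranked 96.4 and 94.3 in naïve, 3.75 and 5.79 in R1, and 51.0 and 68.2 in R2. These 3 sequences are printed above, and the CREB3L2 window carries the AP-1 letters. They lie more than 50 bp from the summit, so they are outside the window used for the motif shares given below.

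The regions with the best mean rank, a choice that favours regions high in every library, were the starts of IQUB, a cilia protein, of CHCHD3, a mitochondrial inner membrane organizer, and of FAM3C, a secreted factor, with mean resistant shifts of -2.38, -10.5 and -4.07. IQUB ranked 92.1 and 94.7 in naïve, 90.5 and 85.2 in R1, and 96.4 and 92.1 in R2, which overlapped naïve. CHCHD3 ranked 98.4 and 99.0 in naïve, 78.6 and 83.1 in R1, and 97.5 and 93.6 in R2, below naïve in all 4 resistant libraries, and its mean log2 difference in enrichment of resistant from naïve was -0.72, beside a median of -0.43 over the stretch. Among the regions with the largest gain, the mean shift was 11.0 within PLXNA4, where R1 was below naïve and R2 above. It was 9.07 at a region inside IMPDH1, an enzyme of guanine nucleotide synthesis, 672 bp from the nearest start, where the cell types overlapped. The strongest region at a start of IMPDH1 was instead lower, ranking 87.8 and 85.1 in naïve, 64.9 and 65.3 in R1, and 73.2 and 51.3 in R2.

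Gene bodies differed by peak count too. PLXNA4, a semaphorin co-receptor in axon guidance, held 187 and 63 peaks in naïve, 149 and 112 in R1, and 11 and 11 in R2. At its start the naïve libraries disagreed, with ranks of 55.1 and 7.3, and those of R1 (23.7 and 20.2) and R2 (30.3 and 34.0) lay between them. SND1 held 53 and 36 peaks in naïve, 39 and 36 in R1, and 7 and 7 in R2. HIPK2, a kinase of the stress response, held 51 and 33, 53 and 36, and 2 and 3 in that order. As a share of the list the R1 to naïve ratios were 0.469, 0.364 and 0.454, and the R2 ratios 0.178, 0.304 and 0.115. FLNC differed, with 9 and 14 peaks in naïve, 8 and 9 in R1, and 20 and 21 in R2. It was not alone, since R2 ratios were also above 1 at IMPDH1 (1.32), KCP (1.17) and MKLN1 (1.57). A lower R2 share was thus not general among gene bodies. Peak counts follow how wide signal is divided: the 148 regions fell under 125 peaks of the first naïve list, and 27 of them lay at FLNC and its neighbour KCP.

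Of the 113 protein-coding genes, 70 had a peak at a start in all 6 lists and 12 in none. Among 69 with a common region, the strongest such region stood for the gene, and all 4 resistant libraries were below both naïve ones at 31 and above at 0. Of all common regions at a start, 11.6% were below and 15.1% above. R1 was below at 59 genes, against 30.8%, and R2 was below at 31 and above at 4, against 20.2% and 27.5%. By function, signalling receptors and ligands were lower in all resistant libraries at 5 of 7 measured genes, cytoskeletal and trafficking genes at 6 of 14, metabolic genes at 5 of 11, transcription and chromatin genes at 4 of 9, and RNA-processing and neuronal genes at 1 of 6 and 1 of 4. The median R1 shift of these lists ran from -12.4 for transcription and chromatin to -30.3 for neuronal genes, beside -20.3 over all 69 genes. Some genes share a region, as FMC1 does with its read-through transcript, and such genes are not separate measurements.

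Among receptors and ligands, GPR37, an orphan receptor of glia and neurons (ENSG00000170775.3, chr7:124743885-124765792, minus strand), ranked 65.7 and 80.4 in naïve, 33.2 and 25.7 in R1, and 8.03 and 14.1 in R2. It was the lowest listed gene, with a mean resistant shift of -52.8, and its groups did not overlap. PTN, which encodes the growth factor pleiotrophin (chr7:137227341-137343774, minus strand), ranked 58.1 and 41.0, then 3.12 and 1.05, then 18.4 and 14.1 in naïve, R1 and R2. GRM8, a glutamate receptor, ranked 63.2 and 60.7 in naïve, 39.4 and 34.7 in R1, and 18.4 and 34.0 in R2, at a region 790 bp from its start. At the weaker region across that start, with 38.4 and 60.7 in naïve, 39.4 and 34.7 in R1, and 8.03 and 43.2 in R2, cell types overlapped. In GPR37 the R2 shift was larger than that of R1. TSPAN33, a tetraspanin, was also lower in all resistant libraries, with a mean shift of -24.5.

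Among trafficking and cytoskeletal genes, GCC1, a Golgi protein, ranked 89.0 and 80.4 in naïve, 43.5 and 34.7 in R1, and 64.5 and 63.6 in R2. CEP41, a centrosomal protein, had a mean resistant shift of -27.0, and both genes were lower in all 4 resistant libraries. For 2 genes of the neuronal list, EXOC4, an exocyst subunit, with a shift of -25.6, and CADPS2, a factor of vesicle release, with -25.5, R2 overlapped naïve. CADPS2 ranked 76.5 and 56.4 in naïve, 17.9 and 19.0 in R1, and 83.8 and 43.2 in R2. Its difference of -45.0 for R1 minus R2 was the largest in the lists. FMC1, an assembly factor of ATP synthase in the metabolic list, and KLHDC10, a ubiquitin ligase adaptor in the trafficking list, followed at -36.8 and -35.6.

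In RNA processing, ZC3HAV1, an antiviral RNA-binding protein, ranked 55.1 and 73.9 in naïve, 14.6 and 11.9 in R1, and 30.3 and 58.0 in R2, so that R1 was lower and R2 overlapped naïve. METTL2B, a transfer RNA methyltransferase, had a mean shift of -23.7 with the same overlap. LRRC4, a synaptic adhesion protein whose gene lies inside SND1 on the other strand (chr7:128027071-128032107), was in no list and was picked after its values were seen. Its start ranked 65.7 and 68.1 in naïve, 4.03 and 5.19 in R1, and 8.03 and 5.94 in R2, with no overlap.

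**Figure D4:**
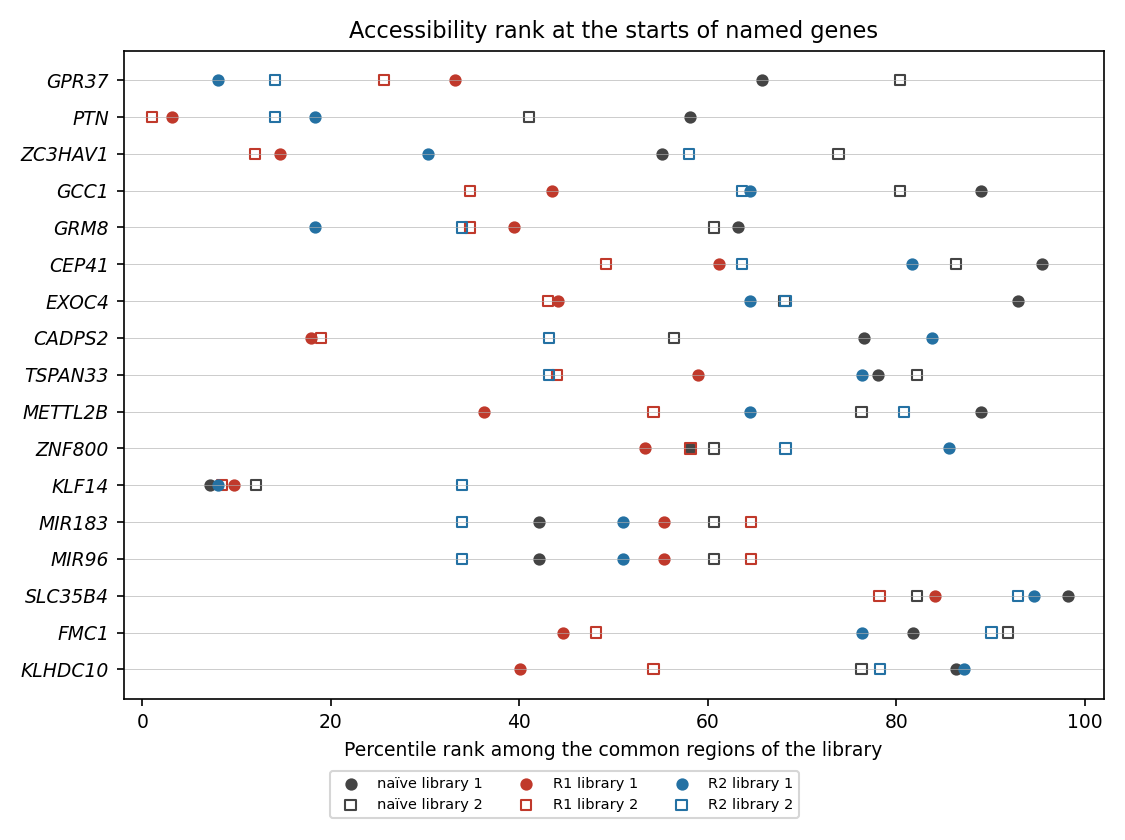
The percentile rank among common regions (x axis) of the start of each of the 17 named list genes (y axis) is plotted for each library, with filled circles for library 1, open squares for library 2, grey for naïve, red for R1 and blue for R2. The red points lie to the left of the grey ones in 12 of the 17 genes, and MIR183 and MIR96 share a region.

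The 5 highest listed genes were not above naïve in all resistant libraries. ZNF800, a zinc finger protein, had a mean shift of 6.94, with R2 above both naïve libraries and R1 overlapping them. KLF14, a transcription factor, had 5.42 at ranks of 7.22 and 12.1 in naïve. The shared start of MIR183 and MIR96 ranked 42.1 and 60.7 in naïve, 55.3 and 64.6 in R1, and 51.0 and 34.0 in R2. Both R1 and R2 overlapped naïve there, and R1 lay above R2. SLC35B4, a nucleotide sugar transporter, had -2.76. Of 10 listed microRNA genes, 3 had a peak in all lists within 1000 bp of an annotated start of the gene. MIR29A, MIR29B1, MIR335, MIR592 and MIR490, 5 in all, had none there. Starts of longer transcripts that carry a microRNA were not searched for these counts.

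Several listed genes lacked a peak at their start in some libraries. PTPRZ1, a receptor of pleiotrophin, and KCND2, a potassium channel, had one only in the R1 lists. NUP205, a nuclear pore subunit, WNT16, LEP and SLC13A4 had one in all naïve and R1 lists and in neither R2 list. The R1 lists were the longest and the R2 lists the shortest, and the part of list length in these absences was not tested. None of 11 genes restricted to other cell types had a peak in all lists, and 6 had none in any. As a check of the cell type, 5 of 6 adrenergic and 5 of 6 mesenchymal neuroblastoma markers had a peak in all lists, and the blood markers PTPRC and CD3E had none.

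In sequence, which the rule did not use, GC content was close to that of all common regions and some motif shares were not. The GC content around the summit had a median of 63.7% over its 148 regions and 62.9% over all common regions. Within 50 bp of the summit, the SP/KLF motif GGGCGG was found at 35.8% of its regions against 24.9% of all, and the NF-Y motif CCAAT at 16.2% against 11.1%. At transcript starts alone the SP/KLF shares were 50.5% and 37.0%. AP-1 letters TGANTCA were at 4 regions, or 2.7%, against 4.24%, and TEAD letters GGAATG at 4, or 2.7%, against 5.29%. The CTCF motif was at 3 regions, or 2.03%, against 0.944%, and ETS CCGGAAG at 7, or 4.73%, against 3.10%. At transcript starts alone the ETS order was reversed, at 4.40% against 4.80%. NRF1 GCGCATG, the E-box CACGTG and the rest were at 3 or fewer. A match describes letters only, and the differences were not tested.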

How the data were processed

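The data are ATAC-seq peak lists of naïve, R1 and R2 SK-N-AS cells, 2 libraries each. As the methods describe, the authors aligned reads with BWA, marked duplicates with Picard, filtered with SAMtools 1.3.1, moved read ends by +4 or -5 bp to the cut site, and ran MACS2 on each library at a q of 0.01. The methods name hg19 and the processing notes also hg38. The coordinates fit hg38, which was used with GENCODE 44. For every peak the deposited lists give a fold, which is a ratio of pileup to background, and the −log10 of its p-value and q-value from the authors' caller. In every list fold and p map one to one, and folds are whole steps within a tolerance of 0.02, so depth was read as tags, taking 1 step as the caller's pseudocount. Library totals are otherwise unknown.

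Common regions were peaks of the first R2 list that shared at least 1 base with a peak in every list, taking the best p. They were ranked within each library, and the mean of naïve ranks was subtracted. Python 3.11.15, pandas 2.3.3 and samtools 1.23.1 were used, and the functions were tested on simulated data. Members and gene lists were chosen with earlier results of these data known. Genes named were the 10 lowest and 5 highest of the lists by mean resistant shift and the 3 with the largest difference between R1 and R2. Regions were the 3 with the largest loss, the 3 highest in mean rank and the 3 with the largest gain, of which 1 is not reported here. No test was run, since all values are of the contrast that chose the stretch.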

Additional observations from a re-analysis of the deposited data

Results flagged for a closer look

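In 9 of the 148 common regions R1 lay below both naïve libraries and R2 above both, close to the 5.55% of all common regions that did so. These differences were not tested. The shared start of SSMEM1 and TMEM209 ranked 52.1 and 80.4 in naïve, 47.0 and 43.1 in R1, and 83.8 and 82.9 in R2, with R1 minus R2 at -38.3 for each gene. A region within PLXNA4 had a difference of -40.2. It ranked 3.02 and 17.5 in naïve, 0.973 and 1.24 in R1, and 58.5 and 24.01 in R2.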

How the results depend on the processing

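In 91 pairs of a result and a setting no sign changed, and 78 moved by less than the spread between libraries, or 1.5 times for counts. Counts and percents of bins could not change sign. The stretch was chosen by these ranks, so its direction was set beforehand and the lack of a sign change is no support. Ranking by fold gave identical values because fold and p order peaks alike in these lists, so it is no separate check. Requiring each region and peak to share at least 0.5 of their length left 23 regions, with an R2 shift of -21.5, an R1 minus R2 difference of -0.73, and 15 regions lower in all resistant libraries. The difference between R1 and R2 thus depends on that choice, and the cause was not tested. Away from starts alone the R1 shift was -31.6. The count lower in all resistant libraries was 40 at starts and 26 away from them, by construction. The top 10000 peaks gave a difference in share of -0.45 percentage points, against -0.318 for the top 20000. Leaving out each library, the count ranged from 69 to 119. It was 87 and 94 of 149 without naïve replicate 1 or 2, and 119 of 207 and 111 of 197 without R2 replicate 1 or 2, since fewer libraries had to be passed and, without an R2 list, more regions qualified. The R1 shift ranged from -24.2 to -22.5, the R2 shift from -12.2 to -8.06, R1 minus R2 from -15.1 to -12.4, the share difference from -0.555 to -0.335 percentage points and that of the top 20000 from -0.42 to -0.215, both set by the naïve libraries. The log2 enrichment ranged from -0.48 to -0.38. Chosen after seeing the data, 1 region for each naïve peak left 125 regions with shifts of -22.3 in R1 and -15.2 in R2 and an R1 minus R2 of -8.36, and leaving out FLNC and KCP gave -21.3 and -7.14. No paired analysis was possible because nothing in the labels ties a replicate number of one cell type to the same number of another, and no model was fitted to which a block could be added. Few R2 tags limit its ranks.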
